A study of Mus musculus with 10 samples.

Results

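The 200 antisense genes with the highest levels in the mouse neural retina were compared between normal light and light damage. A table of 54532 genes listed 2780 antisense genes on chromosomes 1 to 19, of which 2429 were detected in 1 or more retinas. The 200 were chosen by their measured mean level over all 10 retinas, so that this level is a description and not a result. RNA-seq had been done on retinas of 2-month-old BALB/c mice, an albino strain that lacks the pigment shielding the eye from light. The labels give 12 hr of dark adaptation for both groups, followed by 1 day at 200 lux for the 5 normal light retinas (NL-1, NL-4, NL-5, NL-7 and NL-8) and by 1 day at 15000 lux for the 5 light-damaged ones (LD-1, LD-4, LD-6, LD-7 and LD-8). The study calls the retinas of a group biological replicates, while the labels give neither the sex of the mice nor which mouse each retina came from, so p-values measure the spread between these retinas.

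An antisense RNA is transcribed from the strand opposite to another gene, so that the pair can share sequence or lie one within the other's intron. Such RNAs are known to act on the partner gene in some cases, by duplex formation, by transcription through its promoter or by recruitment of chromatin factors, while others are by-products of nearby promoters or enhancers. Retinal neurons hold many of them, among them *Vax2os*, which has been described in mouse photoreceptors. In the deposited table an antisense gene is one that the annotation classes as such, and no function is implied by the name.

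Levels are given in FPKM, the fragments of a gene per kilobase of its exons, scaled to the library. The 200 genes ranged from a mean of 2.73 to 104 FPKM with a median of 5.25, and 32 were above 10 FPKM. At the limit of the choice, *2610020C07Rik*, *Dbhos* and *4833413G10Rik* had means of 2.75, 2.73 and 2.73 FPKM, and *Gm15418*, *Gm37768* and *Gm19582*, just below it, 2.72 FPKM each. Their median length was 805 bases (126 to 9734) with a median of 2 exons, and 17 had a single exon. Of the 200, 183 overlapped a protein-coding gene on the other strand, their partner, and 17 did not.

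The sequences of 5 of these genes show what was measured. The first is the spliced transcript of *Gm13027*, the antisense gene with the highest level, which lies in an intron of *Igsf21* on the plus strand at chr4:140131877-140133351 (GRCm38, transcript from GENCODE M21). It is 241 bases long with 55.6% GC, and is printed in lower case throughout.

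Gm13027: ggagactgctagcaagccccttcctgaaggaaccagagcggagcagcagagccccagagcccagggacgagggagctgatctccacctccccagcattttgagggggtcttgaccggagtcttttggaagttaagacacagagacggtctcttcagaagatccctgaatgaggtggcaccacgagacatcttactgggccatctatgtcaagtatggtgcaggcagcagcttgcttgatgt

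The other 4 are start-site windows, 250 bases before to 50 after an annotated start (RefSeq, GRCm38.p6), of genes that were lower after light damage and whose window held the letters TAATCC or, read on the other strand, GGATTA. These letters are the core of the site bound by CRX and OTX2, and stand in capitals. Both are homeodomain factors found in photoreceptors, but OTX2 is not limited to them, and the study used it as a bipolar cell marker. The windows are chr2:129180624-129180923 on the minus strand for *AI847159*, chr5:124194650-124194949 on the plus strand for *Pitpnm2os2*, chr10:81409325-81409624 on the plus strand for *Gm16104* and chr11:4629962-4630261 on the minus strand for *Gm11961*.

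AI847159: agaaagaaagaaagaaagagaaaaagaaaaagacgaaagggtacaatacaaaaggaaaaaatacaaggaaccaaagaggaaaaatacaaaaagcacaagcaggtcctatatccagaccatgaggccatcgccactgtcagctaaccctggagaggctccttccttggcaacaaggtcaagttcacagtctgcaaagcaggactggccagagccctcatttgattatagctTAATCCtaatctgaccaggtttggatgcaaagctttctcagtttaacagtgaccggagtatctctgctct
Pitpnm2os2: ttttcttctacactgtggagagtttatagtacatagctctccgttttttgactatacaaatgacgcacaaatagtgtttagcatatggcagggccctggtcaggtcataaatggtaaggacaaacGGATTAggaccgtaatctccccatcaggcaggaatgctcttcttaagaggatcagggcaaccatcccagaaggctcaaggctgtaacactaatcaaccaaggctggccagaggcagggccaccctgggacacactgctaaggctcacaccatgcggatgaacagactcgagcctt
Gm16104: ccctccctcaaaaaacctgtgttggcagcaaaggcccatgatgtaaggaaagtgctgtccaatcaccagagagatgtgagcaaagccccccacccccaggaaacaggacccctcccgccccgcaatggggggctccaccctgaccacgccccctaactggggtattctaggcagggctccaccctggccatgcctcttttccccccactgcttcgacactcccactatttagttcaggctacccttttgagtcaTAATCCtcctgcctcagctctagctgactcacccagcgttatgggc
Gm11961: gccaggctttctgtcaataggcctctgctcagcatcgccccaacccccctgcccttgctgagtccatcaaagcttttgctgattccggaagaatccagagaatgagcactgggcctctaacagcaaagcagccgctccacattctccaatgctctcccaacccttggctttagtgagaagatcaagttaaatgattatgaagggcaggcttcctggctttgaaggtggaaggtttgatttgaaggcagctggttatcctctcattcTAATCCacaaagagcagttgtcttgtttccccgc

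The match begins 20 bases before the start in *AI847159*, 125 before it in *Pitpnm2os2*, 4 after it in *Gm16104* and 16 after it in *Gm11961*. Windows were found for 75 of the 200 genes, which were matched by symbol only. The TAATCC letters stood in at least 1 window of 5 of the 11 matched genes that were lower after light damage (45.5%), the fifth being *Med9os*, in 0 of 2 that were higher and in 8 of 62 that were not called (12.9%). Over all 27025 genes with a window, whether tested or not, it was 8.14%. The letters TGCTGA, part of the site of the rod factor NRL and also searched as TCAGCA for the other strand, stood in 2 of the 11 (18.2%), 10 of the 62 (16.1%) and 21.7% of all. A match of letters is not evidence of binding, and these windows were searched after the calls were known.

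What the values of an antisense gene can hold depends on how reads were assigned. The TruSeq kit named in the labels does not mark the strand, so reads of an antisense gene and of its partner cannot be told apart by strand. Of the antisense genes of the table whose exon bases were all shared with exons on the other strand, 73 of 74 (98.6%) had no read in any of the 10 retinas, against 136 of 1167 (11.7%) of those that shared none. The exception, *Gm20496*, had 8 reads. Bases that exons of both strands share thus carried almost no counted reads in these 74 antisense genes. Of the 200 genes, 81 shared no exon base with the other strand, the median share was 5.07% and the highest was 90.2% (*Gm12660*, opposite the bipolar cell receptor gene *Grm6*). All exon bases of 53 of the 200 lay in introns of the partner, and there antisense RNA and unspliced partner RNA cannot be told apart.

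**Figure D1:**
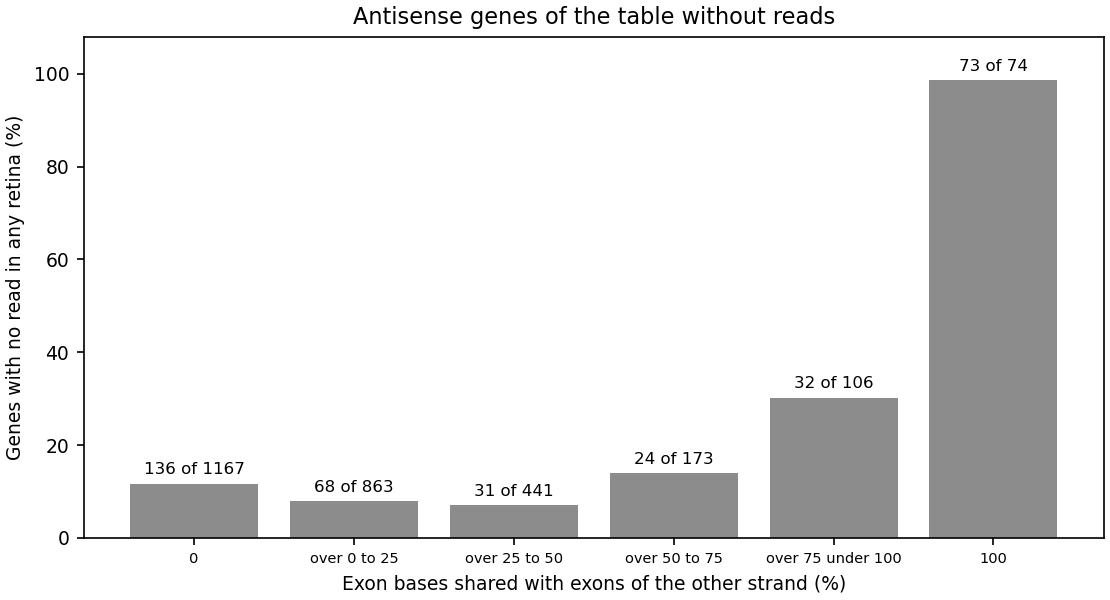
Share of antisense genes with no read in any of the 10 retinas (vertical axis, %) by the share of their exon bases that lie in exons of the other strand (horizontal axis, %), with counts above the bars. The share is 11.7% where no base is shared, 7.03% to 30.2% in the classes between and 98.6% where all bases are shared.

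Depth was 18965090 to 26832535 reads per retina. The 10 retinas were not alike within their groups. LD-4 and LD-6 had the lowest rod markers: 7 rod genes summed to 1162 FPKM in LD-4 and 1240 FPKM in LD-6, to at least 1864 FPKM in the other LD retinas and to 7887 to 9633 FPKM in the NL retinas. *Xist*, the RNA of the inactive X chromosome, was at 159 to 194 FPKM in LD-4, LD-6, NL-4 and NL-8 and at most 0.118 FPKM in the other 6. Within groups the chi-square per gene between reads was 2.52 to 3.41 for NL-5 with NL-7, LD-1 with LD-7 and LD-4 with LD-6, and 10.9 to 38.5 for the other 17 pairs. Of the other markers, 4 of 5 cone genes and 1 of 4 Muller glia genes were lower and 2 of 5 microglia genes were higher. In whole retinas, fewer cells of a type and less RNA per cell cannot be told apart.

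After light damage, 29 of the 200 antisense genes were lower and 3 were higher. A gene was called when limma gave an adjusted p under 0.01 and a change of over 2-fold. All 200 were tested and 32 (16.0%) were called, 14.5% lower and 1.5% higher. Of all 24508 genes tested 6.51% were called, 2.37% lower and 4.13% higher. The corresponding shares were 6.28%, 2.7% and 3.58% among the 11810 genes at or above the lowest of the 200 in mean level, and 7.5%, 1.86% and 5.64% among protein-coding genes. Among the 1430 tested antisense genes of any chromosome that were not among the 200, 4.2% were called, 3.08% lower and 1.12% higher. The median log2 fold change of the 200 was -0.28, against -0.01 over all genes tested, and 147 of the 200 were below 0. The values of the NL and LD groups did not overlap for 57 of the 200 (28.5%), against 22.4% of all genes tested. Because the choice rests on the mean of both groups, a gene high in only 1 group could enter through it. Ranking by the NL retinas alone gave 37 lower and 2 higher of 200, ranking by the LD retinas alone gave 22 lower and 7 higher, and the 164 genes among the highest 200 in both held 22 lower and 2 higher.

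**Figure D2:**
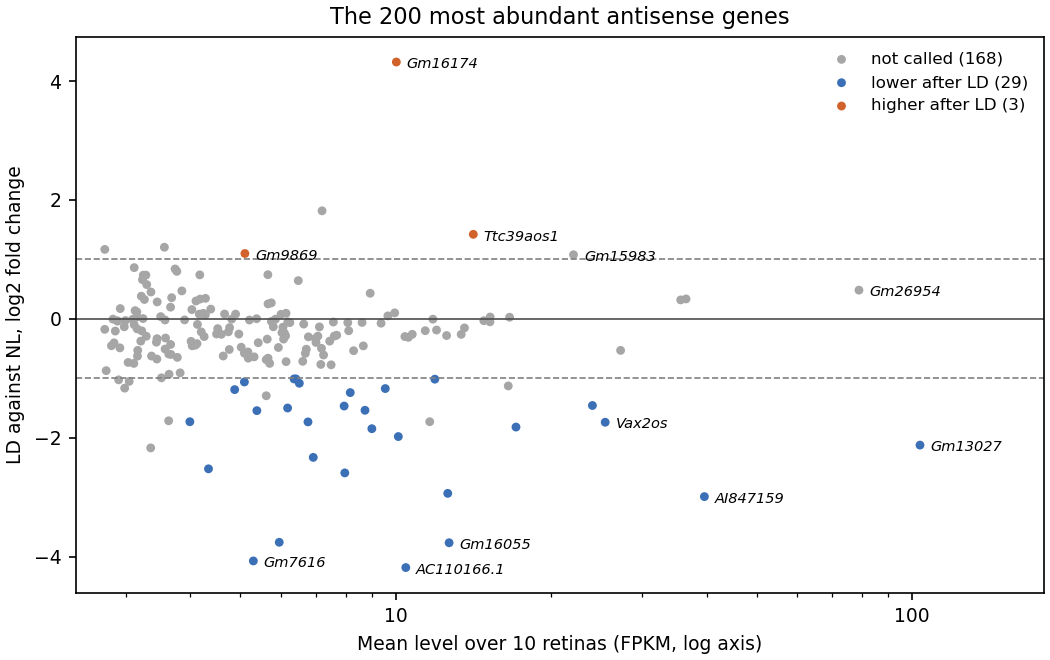
Mean level over 10 retinas (FPKM, log axis) against the log2 fold change of LD against NL (limma) for the 200 antisense genes; dashed lines mark a 2-fold change. The 29 genes called lower reach -4.18 and include *Gm13027* with the highest level, while 3 were called higher, the largest being *Gm16174* at 4.32.

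The 29 lower genes together summed to 549 to 658 FPKM in the NL retinas and to 224, 94.5, 109, 212 and 189 FPKM in LD-1, LD-4, LD-6, LD-7 and LD-8. In 24 of the 29, LD-4 and LD-6 were the 2 lowest LD retinas, as they were for the rod markers. Without the 4 *Xist*-positive retinas, which takes out LD-4 and LD-6 and leaves 3 against 3, 19 of the 29 were still called and 29 of 29 remained below 0. The retinas left still hold the close pairs NL-5 with NL-7 and LD-1 with LD-7, which may not be independent. The part of the lower rod markers in the values of the 29 genes was not tested.

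The antisense genes of highest level did not move together. Of the 10 with the highest mean, 5 were lower by the threshold, and 5 were not called. *Gm13027*, opposite the synaptic adhesion gene *Igsf21*, stood at 169.8, 122, 137, 165 and 224 FPKM in NL and at 67.0, 15.8, 18.7, 63.2 and 53.3 FPKM in LD. Every LD retina lay below every NL retina, and LD-4 and LD-6 were lowest. With means of 164 ± 39.2 and 43.6 ± 24.6 FPKM (SD over 5 retinas each), the log2 fold change was -2.12 ± 0.42 (SE; limma, adjusted p = 0.00338). The call was lost without NL-8 (adjusted p = 0.0102 in limma), with the 3 closest pairs of retinas averaged (-2.05, limma adjusted p = 0.0179), and in the 8 retinas with shared numbers (-1.94, limma adjusted p = 0.0113 with the number as a block and 0.0166 without it).

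*AI847159*, at chr2:129158666-129180667 on the minus strand, has no partner, and the nearest protein-coding gene, the phosphate transporter gene *Slc20a1*, is 18097 bases away. Its NL retinas held 72.3, 61.9, 79.4, 77.8 and 57.7 FPKM and its LD retinas 14.4, 4.76, 5.77, 11.7 and 10.4 FPKM, with no overlap. The log2 fold change was -2.99 ± 0.28 (limma, adjusted p = 2.68e-05), the largest drop among the 10 highest.

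*Vax2os*, which starts head-to-head with the ventral eye homeobox gene *Vax2* at chr6:83692806-83712201, was at 34.9, 36.8, 48.1, 45.6 and 29.3 FPKM in NL and at 13.4, 6.94, 9.33, 13.5 and 16.6 FPKM in LD. All LD values lay below all NL values (log2 fold change -1.74 ± 0.23, limma adjusted p = 0.000264). *Pitpnm2os2*, inside the gene of the phosphatidylinositol transfer protein *Pitpnm2*, had 28.0, 24.0, 23.6, 24.5 and 30.8 FPKM in NL and 12.4, 3.81, 5.08, 10.2 and 8.55 FPKM in LD (-1.82 ± 0.28, limma adjusted p = 0.000812). *Pitpnm2os2* has near-identical copies of at least 100 bases in 6 other genes, so that its reads may be shared.

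*Gm48677* lies wholly in an intron of *Gnb5*, whose product, the G protein beta 5 subunit, works with RGS9 to end the photoresponse. It stood at 30.7, 34.7, 36.9, 36.1 and 35.7 FPKM in NL and at 17.0, 8.59, 11.9, 19.4 and 9.44 FPKM in LD (-1.46 ± 0.21, limma adjusted p = 0.000433), a call lost without the *Xist*-positive retinas (adjusted p = 0.0239 in limma). *Gm15347*, opposite the lipid flippase gene *Atp11a*, went from 32.2 ± 2.89 to 22.4 ± 3.18 FPKM (-0.53 ± 0.10, limma adjusted p = 0.0025), with no overlap but below the 2-fold limit.

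Of the highest 10, 4 had higher LD means without being called. *Gm26954*, opposite the active zone gene *Pclo*, was at 65.7 ± 17.5 FPKM in NL and 92.2 ± 24.0 FPKM in LD (limma, adjusted p = 0.126). For *Gm17201*, opposite the phosphatase 6 subunit gene *Ankrd52*, the means were 32.3 ± 3.47 and 40.8 ± 4.31 FPKM (0.34 ± 0.09, limma adjusted p = 0.0155). *Gm12473*, opposite the natriuretic peptide receptor gene *Npr2*, had 31.4 ± 5.37 and 39.9 ± 10.2 FPKM (limma, adjusted p = 0.26). *Gm15983*, which starts head-to-head with the methyltransferase gene *Eef2kmt*, was at 19.2, 9.61, 11.8, 11.0 and 17.7 FPKM in NL and at 43.3, 16.9, 19.7, 39.0 and 32.7 FPKM in LD. Only LD-4 fell inside the NL range, and limma gave 1.08 ± 0.29 with an adjusted p = 0.0186, which became 0.00785 without LD-4 and 0.00689 without the *Xist*-positive retinas. *Gm15983* has near-identical copies in 8 other genes, the longest of 285 bases, so that its reads may be shared.

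The largest decreases were in genes of moderate level. *AC110166.1* and *1700119H24Rik* both lie within *Mylk*, the myosin light chain kinase gene, on the minus strand at chr16:34943175-34958994 and chr16:34935854-34939329. *AC110166.1* went from 16.3, 20.1, 24.5, 23.1 and 14.8 FPKM in NL to 0.568, 0.854, 1.19, 0.585 and 2.48 FPKM in LD (-4.18 ± 0.34, limma adjusted p = 1.03e-05). *1700119H24Rik* went from 9.54, 11.5, 12.5, 13.6 and 8.17 FPKM to 0.488, 0.671, 0.760, 0.373 and 1.83 FPKM (-3.75 ± 0.33, limma adjusted p = 1.76e-05). For both of them LD-8, not LD-4 or LD-6, stood apart from the other LD retinas, as the highest.

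*Gm7616* (chr9:59951285-59959044, plus strand) lies in introns of *Nr2e3*, the nuclear receptor that keeps rods from expressing cone genes. It had 10.6, 6.56, 14.2, 12.0 and 7.02 FPKM in NL and 0.591, 0.316, 0.358, 0.422 and 0.864 FPKM in LD, the latter from 4 to 12 reads (-4.07 ± 0.28, limma adjusted p = 3.02e-06). *2310030A07Rik* (chr1:150320681-150346771, minus strand) lies tail-to-tail with *Pdc*, the gene of phosducin, which binds the beta-gamma subunits of transducin. Its values were 14.3, 15.6, 11.1, 13.9 and 13.3 FPKM in NL and 2.96, 1.70, 1.32, 2.74 and 2.65 FPKM in LD (-2.59 ± 0.21, limma adjusted p = 8.68e-06). These were the 2 genes among the 200 with a partner on a list of 44 photoreceptor genes, of which 35 were lower and 0 higher.

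*Gm16055* (chr6:8354056-8364136, minus strand), in an intron of *Umad1*, was at 24.5, 16.0, 29.6, 25.9 and 21.6 FPKM in NL and at 2.95, 0.945, 0.714, 2.95 and 1.72 FPKM in LD (-3.76 ± 0.37, limma adjusted p = 3.66e-05). *Gm15882*, in an intron of the glycosyltransferase-like gene *Galntl6*, had 5.58, 10.1, 6.68, 7.60 and 6.98 FPKM in NL and 1.53, 1.33, 2.04, 0.924 and 0.578 FPKM in LD (-2.52 ± 0.28, limma adjusted p = 9.54e-05). In both genes every NL value exceeded every LD value.

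*Gm11961* stood at 18.4, 22.1, 26.3, 26.7 and 17.6 FPKM in NL and at 2.57, 2.18, 1.95, 2.59 and 5.81 FPKM in LD, with LD-8 highest (-2.93 ± 0.26, limma adjusted p = 2.01e-05). *Gm15872*, within *Traf3ip3*, had 11.2, 9.26, 10.3, 10.5 and 15.6 FPKM in NL and 4.44, 1.02, 1.41, 3.61 and 1.91 FPKM in LD (-2.33 ± 0.35, limma adjusted p = 0.000695). With *Gm13027* and *AI847159* these make up the 10 genes that were over 4-fold lower. The other 19 lower genes had log2 fold changes of -1.98 to -1.01, and 17 further genes passed the adjusted p but not the fold limit, 16 of them lower.

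**Figure D3:**
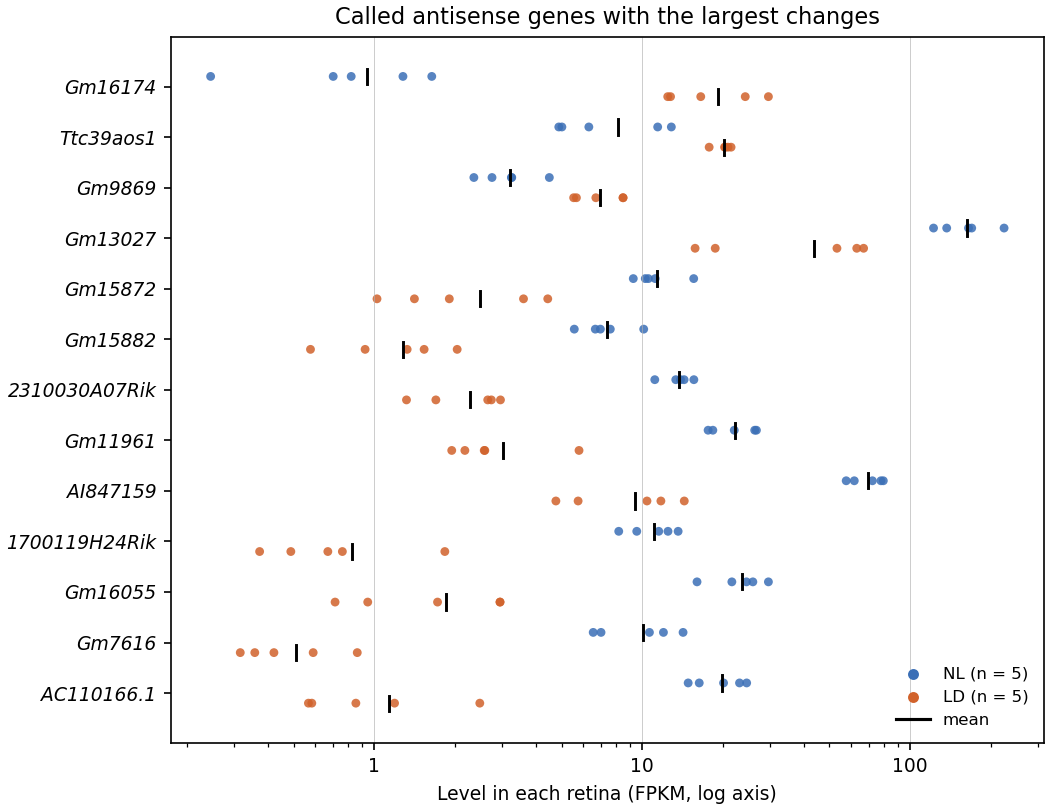
Level in each retina (FPKM, log axis) of the 10 antisense genes with the largest decrease and the 3 called higher; black bars mark group means (n = 5 each). The 13 were picked from the 32 called genes, of which 31 had no overlap between the groups. In each of the 13 the NL and LD retinas occupy separate ranges, from *AC110166.1* at 14.8 to 24.5 FPKM in NL and 0.568 to 2.48 FPKM in LD to *Gm16174* at 0.245 to 1.64 and 12.5 to 29.6 FPKM.

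Only 3 of the 200 were higher by the threshold. *Gm16174* (chr7:19816553-19818625, plus strand) lies in an intron of *Bcl3*, the gene of an IkappaB-like regulator of NF-kappaB target genes, and was at 1.28, 0.703, 0.245, 0.820 and 1.64 FPKM in NL and at 29.6, 12.8, 12.5, 24.2 and 16.5 FPKM in LD. The NL values rest on 2 to 17 reads, and the rise was 4.32 ± 0.42 on the log2 scale (limma, adjusted p = 3.34e-05), the largest change in either direction among the 200. *Ttc39aos1*, 468 bases from the tetratricopeptide gene *Ttc39a*, had 6.32, 4.88, 11.4, 12.8 and 5.01 FPKM in NL and 17.8, 20.3, 21.5, 20.4 and 20.9 FPKM in LD (1.42 ± 0.26, limma adjusted p = 0.00221). NL-5 and NL-7, the pair that resembled each other most in this group, were above the other NL retinas.

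*Gm9869*, in an intron of the coiled-coil gene *Uaca*, had 2.75, 2.35, 3.26, 4.50 and 3.25 FPKM in NL and 5.55, 8.49, 8.48, 6.71 and 5.68 FPKM in LD (1.10 ± 0.18, limma adjusted p = 0.00112). Without the *Xist*-positive retinas neither *Gm9869* nor *Ttc39aos1* was called any longer (0.78 and adjusted p = 0.0346 for *Gm9869*, 1.00 and 0.0452 for *Ttc39aos1*, limma). Both calls were also lost with the replicate number as a block (limma adjusted p = 0.0291 for *Gm9869* and 0.0139 for *Ttc39aos1*). *Gm9869* further fell short of 2-fold with a pseudocount of 1 (0.92) and without NL-4 (0.999). None of the 200 had a partner on the lists of 35 interferon response genes, of which 35 were higher, or of immediate early and stress genes, of which 16 of 21 tested were higher. Of 32 tested genes for RNA duplex processing, editing and the nuclear exosome, 0 were called by limma and 0 by limma-voom on the recovered reads, while 9 were lower and 3 higher at an unadjusted p under 0.05.

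The question of whether an antisense gene moved with its partner was asked for 181 pairs in which both were tested, with 172 distinct partners. Of the partners, 9 were lower and 2 higher (6.4% called), with a median log2 fold change of -0.10. Of all protein-coding genes tested, 7.5% were called, 1.86% lower and 5.64% higher. In 10 pairs both genes were lower, in 1 pair (*Gm16174* and *Bcl3*) both were higher, and in 0 pairs were they called in opposite directions. The antisense gene alone was lower in 17 pairs and higher in 1. The partner alone was lower in 1 pair (*Gm49417* and the calcineurin subunit gene *Ppp3cc*) and higher in 1 (*Fgf2os* and *Fgf2*). Over the 181 pairs, which share the same retinas and in some cases a partner, log2 fold changes had a Pearson correlation of 0.70 and a Spearman correlation of 0.59, whereas mean levels had 0.098 (of log10 values) and 0.096. For antisense genes wholly in partner introns, such as *Gm16174*, *Gm48677* and *Gm15872*, antisense RNA and unspliced partner RNA cannot be told apart. How far this enters the pair counts and correlations was not tested. The antisense gene exceeded its partner in FPKM in 38 pairs, and its level was a median of 39.2% of the partner's.

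Of the 27 lower antisense genes with a tested partner, 18 had a partner that was itself lower at an adjusted p under 0.01 in limma, 8 of these by less than 2-fold, and 9 had a partner that did not pass. *Pdc* went from 416 ± 13.1 to 94.3 ± 25.3 FPKM (-2.19 ± 0.17), close to the -2.59 of *2310030A07Rik*, and *Traf3ip3* from 4.60 ± 0.438 to 1.16 ± 0.456 FPKM (-1.98 ± 0.24) beside the -2.33 of *Gm15872*. *Gnb5*, the partner of *Gm48677* and of *Gm19531*, went from 186 ± 6.41 to 84.6 ± 14.9 FPKM (-1.15 ± 0.11). Without the *Xist*-positive retinas *Gnb5* fell just short of 2-fold (-0.99), and both of these pairs rest on it. *Gm11032*, the partner of *Gm11961*, had 0 to 2 reads in the LD retinas and was at least 5.52-fold lower, counting each LD retina at the floor of 3 reads. *Bcl3* rose from 0.448 ± 0.176 to 21.4 ± 10.9 FPKM, a log2 fold change of 5.21 ± 0.36 (limma, adjusted p = 3.13e-06), and *Uaca* from 6.26 ± 0.434 to 11.1 ± 1.63 FPKM (0.81 ± 0.09).

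**Figure D4:**
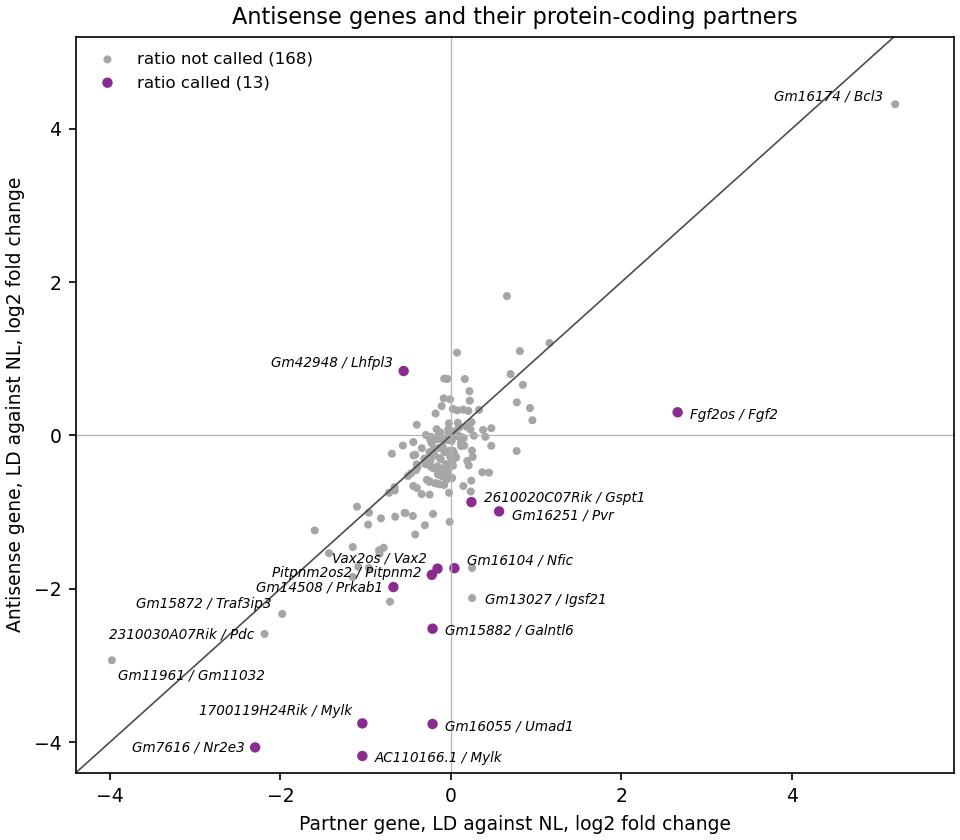
Log2 fold change of LD against NL for the partner gene (horizontal) and the antisense gene (vertical) in 181 pairs; the line marks equal change and purple points the 13 pairs whose ratio was called. *Fgf2os* lies to the right of the line at 0.30 against 2.66 for *Fgf2*.

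To test whether antisense gene and partner changed unequally, the log2 ratio of the antisense gene to the partner was compared between the groups over all 1481 such pairs of the table. Of the 181 pairs, 13 were called (7.18%), 12 with a lower ratio in LD (6.63%) and 1 with a higher one. Over all 1481 pairs 2.03% were called, 1.76% lower and 0.27% higher, and over the 1300 pairs whose antisense gene was not among the 200 1.31%. From fewer samples, 3 were called lower with the 3 closest pairs of retinas averaged and 1 (*Gm16055*) without the *Xist*-positive retinas, while 35 and 33 were lower at an unadjusted p under 0.05 in limma.

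*Gm16055* fell from a log2 ratio of 2.82 ± 0.28 (SD, n = 5) to -0.72 ± 0.86 against *Umad1*, a difference of -3.55 ± 0.36 (SE; limma, adjusted p = 0.000199). *Umad1* itself was at 3.37, 2.84, 3.32, 2.97 and 3.38 FPKM in NL and at 2.62, 2.47, 2.69, 2.69 and 3.15 FPKM in LD (-0.21 ± 0.09, limma adjusted p = 0.0926). An antisense gene several times above its partner thus fell below it in 3 of 5 LD retinas.

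*Mylk* went from 9.97 ± 1.35 to 4.81 ± 0.736 FPKM (-1.04 ± 0.13, limma adjusted p = 0.000156). This lies close to the 2-fold limit, and 2 of the pairs counted as lower in both genes rest on it: the change fell short of 2-fold without LD-4 (-0.98) or LD-6 (-0.97), with a pseudocount of 1 (-0.92), with TPM (-0.95), without the factor per retina (-0.91), in the 8 retinas with shared numbers, with or without the block (-0.94), without the *Xist*-positive retinas (-0.96) and with the closest pairs averaged (-0.99). Its antisense genes dropped further, by a ratio difference of -3.14 ± 0.38 for *AC110166.1* and -2.72 ± 0.36 for *1700119H24Rik* (limma, adjusted p = 0.000616 and 0.00102). The difference for *AC110166.1* was -2.90 with the closest pairs averaged and -3.36 without the *Xist*-positive retinas, at limma adjusted p of 0.0175 and 0.0337. *Galntl6* was at 1.78 ± 0.145 FPKM in NL and 1.52 ± 0.155 FPKM in LD (limma, adjusted p = 0.157), and the ratio of *Gm15882* to it differed by -2.31 ± 0.30 (limma, adjusted p = 0.00102).

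*Fgf2os* and *Fgf2*, the gene of basic fibroblast growth factor, start head-to-head, and here the ratio was lower with a partner that rose. *Fgf2os* lies at chr3:37335332-37349740 on the minus strand. *Fgf2os* was at 3.80, 3.07, 3.04, 3.60 and 3.98 FPKM in NL and at 7.60, 3.01, 2.67, 6.61 and 3.65 FPKM in LD, with overlap (0.30 ± 0.27, limma adjusted p = 0.464). *Fgf2* was at 4.23, 2.72, 2.92, 2.74 and 4.46 FPKM in NL and at 37.7, 17.6, 16.6, 35.0 and 12.1 FPKM in LD (2.66 ± 0.31, limma adjusted p = 0.000122). LD-1 and LD-7 were highest for both genes. The log2 ratio was 0.06 ± 0.23 in NL and -2.30 ± 0.35 in LD, a difference of -2.36 ± 0.20 (limma, adjusted p = 0.000136).

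The other 7 pairs with a lower ratio were *Gm7616* with *Nr2e3* (-1.77), *Gm16104* with the nuclear factor I gene *Nfic* (-1.77), *Pitpnm2os2* with *Pitpnm2* (-1.59), *Vax2os* with *Vax2* (-1.58), *Gm16251* with *Pvr* (-1.56), *Gm14508* with the AMP kinase subunit gene *Prkab1* (-1.30) and *2610020C07Rik* with the translation termination gene *Gspt1* (-1.11). The ratio of *Gm7616*, whose LD values rest on 4 to 12 reads, was -0.56 with a pseudocount of 1 (limma adjusted p = 0.0833). It was also no longer called without any 1 of NL-1, NL-5, NL-7, LD-1, LD-4, LD-6 or LD-7 (limma adjusted p up to 0.0129). *Vax2* was at 28.4 ± 3.52 FPKM in NL and 25.4 ± 2.57 FPKM in LD (limma, adjusted p = 0.269) and *Pitpnm2* at 12.5 ± 0.231 and 10.7 ± 1.27 FPKM (limma, adjusted p = 0.0486). *Gm13027* had a ratio difference of -2.37 ± 0.48 to *Igsf21*, which was at 24.5 ± 1.63 FPKM in NL and 29.3 ± 3.21 FPKM in LD, and this pair was not called (limma, adjusted p = 0.0133).

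The 1 pair with a higher ratio was *Gm42948* with the tetraspan gene *Lhfpl3* (1.39 ± 0.25, limma adjusted p = 0.0075). *Gm42948* had 2.59, 3.10, 1.79, 2.77 and 2.35 FPKM in NL and 6.81, 2.90, 2.32, 6.61 and 6.14 FPKM in LD, where LD-4 and LD-6 stayed in the NL range. *Lhfpl3* was at 14.1 ± 1.15 FPKM in NL and 9.76 ± 2.22 FPKM in LD (limma, adjusted p = 0.0131). The ratio was no longer called without any 1 of NL-1, NL-5, NL-7, NL-8, LD-1, LD-4, LD-7 or LD-8 (adjusted p up to 0.022).

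**Figure D5:**
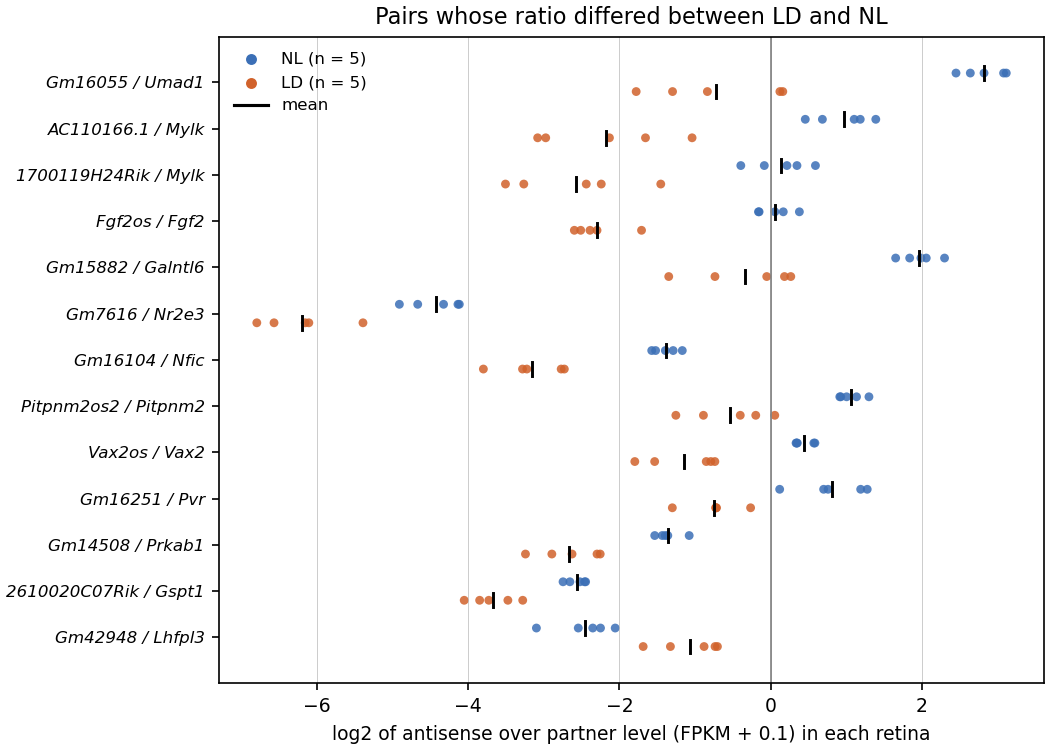
Log2 ratio of the antisense gene to its partner (FPKM + 0.1) in each retina for the 13 called pairs; black bars mark group means (n = 5 each). *Gm16055* lies at 2.45 to 3.12 in NL and at -1.78 to 0.16 in LD, and *Gm42948* with *Lhfpl3* is the 1 pair with the LD retinas to the right.

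The arrangement of the pair was described for all 200. The antisense gene lay inside its partner in 102, of which 19 (18.6%) were lower and 2 higher, and overlapped it tail-to-tail in 39, of which 6 (15.4%) were lower. In 37 head-to-head pairs, whose starts were a median of 937 bases apart, 2 (5.41%) were lower, *Vax2os* and *Uckl1os*. In 5 the partner lay inside the antisense gene, with 0 called, and of the 17 without a partner 2 were lower (*AI847159* and *Med9os*) and 1 was higher. Of the 53 genes that lay wholly in introns of the partner, 12 were lower, beside 29 of all 200 (14.5%). Whether these shares differ was not tested.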

How the data were processed

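Neural retinas, 5 NL and 5 LD, were profiled by RNA-seq from total RNA extracted with TRIzol, with a kit that does not mark strand, and groups were taken from the sample titles. The submitters' processing notes name Bowtie2 2.0.6, TopHat2 2.0.9 and the build mm8, whereas the gene positions are those of GRCm38: 54409 of 54532 identifiers are in GENCODE M21 and 53499 of these have the same start and end. The counting program, its strand setting and the annotation are not given in the sources used here. The authors deposited FPKM values, scaled to the library with a further factor per retina of 0.951 to 0.968 in NL and 1.04 to 1.07 in LD. FPKM times length gave whole reads for 100% of the values (tolerance 0.01), with 18965090 to 26832535 reads per retina. Read floors cover counting error only.

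The 200 antisense genes were ranked by mean FPKM, and all genes that reached 0.1 FPKM in 5 or more retinas were compared as log2(FPKM + 0.1) in limma 3.58.1 (R 4.3.3) with an intensity trend and Benjamini-Hochberg adjustment. Fold changes on this scale understate those of low genes. The partner was the protein-coding gene of the other strand with the longest overlap of at least 1 base, and exon sharing and introns were read from GENCODE M21. Copies elsewhere (at least 95% identity over 100 bases) were found with BLAST 2.17.0. Ratios to the partner were fitted over all 1481 pairs. By two-sided exact permutation over the retinas the smallest p that 5 against 5 allows is 0.00794, which all named genes without overlap reach. Python 3.11.15, numpy 2.4.6, pandas 2.3.3, scipy 1.17.1 and matplotlib 3.10.9 were used, and both fits were tested on simulated data. The 200 genes, the gene lists and the tests were chosen with earlier results of these data known. Named were the 10 genes of highest level, the 10 with the largest called decrease and increase, the 5 called ratios that changed most in each direction, genes opposite a listed photoreceptor, interferon, stress or RNA duplex gene, and the partners. *Gm16104*, *Med9os*, *Uckl1os* and others outside this rule were named after their values were seen. Alternatives changed the pseudocount, filter, scaling, trend, threshold, block, ranking, partner and retinas. Presence of *Xist*, averaging of close pairs and ranking per unshared base were chosen after seeing the data. Same-numbered retinas of NL and LD (1, 4, 7 and 8) correlated by -0.09 to 0.07 in their deviations from the group means. These values gave no sign of pairing by number, and what the numbers stand for is not known.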

Additional observations from a re-analysis of the deposited data

Results flagged for a closer look

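In 4 of 86 groups of 5 values examined over the 23 named antisense genes and their 20 named partners, 1 retina lay far from the other 4. Chance gives about 1 in 20 groups, or 4.3. LD-8 was highest for *1700119H24Rik* (1.83 FPKM, the other LD values being 0.373 to 0.760 FPKM) and for *Gm11961* (5.81 FPKM beside 1.95 to 2.59 FPKM). NL-4 was highest for *Igsf21* (27.3 FPKM beside 23.1 to 24.3 FPKM) and lowest for *Mylk* (7.60 FPKM beside 10.1 to 10.8 FPKM).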

How the results depend on the processing

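The 29 lower and 3 higher antisense genes became 78 and 11 at an adjusted p under 0.05 with no minimum fold, 48 and 8 among the 400 highest, and 22 to 32 and 2 to 4 with 1 retina left out in turn. Ranking by FPKM per unshared base gave 5 higher. With the replicate number as a block (8 retinas, pairing by number) 17 were lower and 1 higher. The 12 lower and 1 higher ratios became 0 and 0 under that block (31 lower and 5 higher of 181 at an unadjusted p under 0.05 in limma), 6 lower in the same 8 retinas without it, 1 and 0 without the *Xist*-positive retinas, 3 and 0 with close pairs averaged, 23 and 2 at an adjusted p under 0.05 with no minimum fold, and 8 to 12 and 0 to 1 with 1 retina left out. The higher ratio was also lost (0) with a pseudocount of 0.01 and with TPM. Why the counts moved was not tested, except that the block and left-out retinas use fewer samples. Named values that turned sign, none of them called, were *Pclo* 0.0201 with TPM and 0.0493 without the factor per retina, *Eef2kmt* -0.0095 without LD-1 (up to 0.15 without LD-4), the ratio of *Gm11961* from 1.04 to -0.11 with a pseudocount of 1, and that of *Gm15347* 0.0442 under the block, 0.0442 in its 8 retinas, 0.0209, 0.0067 and 0.0089 without NL-5, NL-7 or LD-7 (lowest -0.10, without LD-8), and 0.0660 with close pairs averaged. TPM and the removal of the factor raised the median of all genes by 0.10 and 0.12 on the log2 scale, and the 200 stayed 0.25 to 0.27 below it in all scalings tried. Of the other values of named genes, 1447 kept direction and side of the threshold, 71 lost a call and 8 gained one.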

Other observations

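Of the 200 antisense genes, 22 carry the name of a gene with the ending os. Of these, 5 were lower (*Vax2os*, *Pitpnm2os2*, *Tnfsf13os*, *Uckl1os* and *Med9os*) and 1 higher (*Ttc39aos1*). Of all 200, 29 were lower (14.5%) and 3 higher (1.5%), and whether the 22 differ from them was not tested. *Uckl1os* went from 13.0 ± 1.78 to 4.48 ± 1.09 FPKM (n = 5 each), with a log2 fold change of -1.54, beside -1.43 for *Uckl1*, a uridine kinase-like gene. *Map2k3os*, which has no partner, had 0.86 (adjusted p = 0.000291 in limma), under the 2-fold limit. *Srrm4os* and *Zfp335os* were at 0.00 in log2 fold change (0.0039 and -0.0027).

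Among antisense genes opposite markers of inner retinal cells, none of which was called, *Gm12660* opposite *Grm6* (ON bipolar cells) had a log2 fold change of -0.30, *Gm11655* opposite *Prkca* (rod bipolar cells) -1.02 (adjusted p = 0.028 in limma) and *Pax6os1* opposite *Pax6* (amacrine and other cells) -0.39. *Gm13029*, the other antisense gene of *Igsf21*, had -1.73 with an adjusted p = 0.0119 in limma and no overlap between the groups, beside the -2.12 of *Gm13027* and 0.25 of *Igsf21*. For 12 genes the groups differed over 2-fold without an adjusted p under 0.01.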
